A study of Mus musculus with 12 samples.

Results

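The Hox genes of the 4 mouse clusters (A, B, C and D) were followed across cells sorted from colon adenomas. Members were all genes whose only platform symbol was Hox followed by the letter of a cluster and a number. This gave 34 of the 17097 genes on the array, 9 in cluster A, 10 in B, 6 in C and 9 in D. The RefSeq table lists 39 Hox genes, and the remaining ones were not analysed here. Where a gene had several probe sets (groups of probes against 1 transcript), the one with the highest mean over the 12 arrays stood for it. Of the 34 members, 23 exceeded a log2 signal of 4.40 (the 40th percentile of all values) on at least 3 arrays and entered the tests with 12595 genes in all.

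Each of 3 mice (MKL347, MKL358 and MKL367) gave 1 array for each of 4 populations: cells with both markers (Mex3a+ Lgr5+), with 1 of them (Mex3a+ Lgr5- or Mex3a- Lgr5+) and with neither (Mex3a- Lgr5-). The Mex3a protein binds RNA, and Lgr5 is a receptor of intestinal stem cells. Every mouse is labelled ki/+, a genotype whose nature the labels do not state, and every population came from adenomas, so all groups share both. The labels name neither the reporter or antibody behind the sort nor the strain, sex, age, tumour model or adenoma count. A population was a pool of 500 sorted cells in mouse MKL358 and of 2000 in mice MKL347 and MKL367. In such pools, fewer cells of a type and less RNA per cell cannot be told apart.

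Hox proteins are homeodomain transcription factors that give cells their position along the head-to-tail axis. Within a cluster the genes stand in the order of the axis they mark, with low numbers at the 3' end acting towards the head and high numbers at the 5' end acting towards the tail, and genes of the same number in different clusters are paralogs. They bind DNA with cofactors of the TALE class (Pbx, Meis, Pknox). In the embryo their domains are set by retinoic acid and by the caudal factors Cdx1 and Cdx2, and are kept by Polycomb and Trithorax proteins. The adult colon retains a code of posterior members.

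Promoter sequence was available in RefSeq (GRCm38.p6) for 21 of the 34 members, as 23 windows of 250 bases before a transcription start. Shown are Hoxa7 and Hoxd9, the members called lower in Mex3a+ cells by the test without the mouse, and Hoxd11, which had the widest range over the 12 arrays (1.91 log2 units). Capitals mark the caudal motif TTTATG or its reverse complement CATAAA. The Hoxa7 window is chr6:52218574-52218823 on the minus strand, the Hoxd9 window chr2:74697513-74697762 on the plus strand, and the Hoxd11 window, at the more upstream of its starts, chr2:74679308-74679557 on the plus strand.
Hoxa7: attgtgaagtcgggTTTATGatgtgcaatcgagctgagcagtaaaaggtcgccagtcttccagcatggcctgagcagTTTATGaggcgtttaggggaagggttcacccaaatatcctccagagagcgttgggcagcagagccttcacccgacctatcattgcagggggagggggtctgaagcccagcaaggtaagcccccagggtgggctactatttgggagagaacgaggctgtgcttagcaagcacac
Hoxd9: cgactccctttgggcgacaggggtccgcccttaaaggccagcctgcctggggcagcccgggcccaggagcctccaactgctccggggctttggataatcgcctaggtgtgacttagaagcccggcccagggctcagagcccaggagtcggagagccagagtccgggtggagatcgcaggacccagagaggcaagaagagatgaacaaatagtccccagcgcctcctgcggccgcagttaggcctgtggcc
Hoxd11: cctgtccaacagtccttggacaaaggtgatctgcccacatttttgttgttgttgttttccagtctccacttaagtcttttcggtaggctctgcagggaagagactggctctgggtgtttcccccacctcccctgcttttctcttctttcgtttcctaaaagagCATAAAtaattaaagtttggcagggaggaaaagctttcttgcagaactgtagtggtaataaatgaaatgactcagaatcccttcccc
TTTATG was present 2 times in the Hoxa7 window, 236 and 173 bases before the start. The Hoxd11 window shown held 1 match on the other strand, 87 bases before the start, and the Hoxd9 window held 0. The window at the other Hoxd11 start, chr2:74682073-74682322 on the plus strand, held 0 as well. Over both strands, 5 of the 23 Hox windows held the motif, those of Hoxa7, Hoxb8, Hoxd3, Hoxd4 and Hoxd11, against 10.8% of all 32851 windows. The TATA box TATAAA stood in 4 Hox windows (12.4% of all), the TCF and LEF motif CTTTGA in 3 (13.8%) and the Pbx and Hox motif TGATNNAT in 4 (7.68%). The median count of CpG pairs was 12 in the Hox windows and 6 in all windows. A match of letters is a description of the window and no evidence of binding.

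The members that passed the signal level were spread unevenly over the clusters. All 9 members of cluster A passed, 7 of 10 in B, 2 of 6 in C and 5 of 9 in D. Together 23 of 34 members passed, beside 12595 of the 17097 genes on the array. In cluster D the members that passed were Hoxd9 to Hoxd13 at the 5' end of the cluster, and Hoxd1, Hoxd3, Hoxd4 and Hoxd8 did not pass. In cluster B the 3' members Hoxb1, Hoxb2 and Hoxb3 did not pass, and in cluster C Hoxc4, Hoxc8, Hoxc10 and Hoxc13 did not. The 11 members below the level had means of 2.94 (Hoxc8) to 4.23 (Hoxd4). Closest to the level were Hoxd4, above it on 1 array, and Hoxb3, above it on 2 arrays; just inside were Hoxd10, above it on 10 arrays, and Hoxb7, above it on 11. The other 21 members that passed did so on all 12 arrays. Probe sets differ in brightness for the same amount of RNA, so these values order no gene against another.

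The sorted transcripts followed the labels. Mex3a was higher in Mex3a+ cells by 0.69 on the log2 scale (SE 0.12, limma adjusted p = 0.00162), and Lgr5 was higher in Lgr5+ cells by 1.55 (SE 0.14, adjusted p = 0.000872). Lgr5 was also higher in Mex3a+ than in Mex3a- cells, by 0.82 (SE 0.14, adjusted p = 0.00139). The epithelial markers passed the filter in all 10 of 10 cases, with mean levels over the list of 10.1 to 10.4 in Mex3a+ and 10.5 to 10.7 in Mex3a- arrays.

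The first comparison asked which Hox genes differ with Mex3a status, averaged over both Lgr5 states (6 arrays against 6). Hoxa7 and Hoxd9 were lower in Mex3a+ cells and no member was higher. A gene was called when its p in limma, adjusted by Benjamini-Hochberg over the 12595 genes, lay under 0.05. These 2 of 23 members (8.70%) stand beside 17.3% of all genes called lower, and the 0 called higher beside 9.91%. In this test, which leaves out the mouse, the share of Hox members called was thus below that of genes in general. At an unadjusted p under 0.05 there were 3 (13.0%, against 38.4% of all genes). When the mouse entered the model as a replicate block, which compares the populations within each animal, 8 of 23 members were called lower (34.8%, against 25.3% of all genes) and 0 higher (15.9%). The 8 were Hoxa3, Hoxa7, Hoxb5, Hoxb6, Hoxd9, Hoxd10, Hoxd11 and Hoxd13, each lower in 3 of 3 mice. The count of called members is therefore 2 without the pairing and 8 with it. With the block, 9 of 23 members had an unadjusted limma p under 0.05, against 6133 of the 12595 genes.

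Hoxa7 comes from the middle of cluster A. In mice MKL347, MKL358 and MKL367 its log2 signal was 6.76, 6.33 and 6.38 in Mex3a+ Lgr5+ cells and 6.69, 6.31 and 6.34 in Mex3a+ Lgr5- cells. It was 7.08, 6.78 and 6.95 in Mex3a- Lgr5+ cells and 7.15, 7.03 and 7.01 in Mex3a- Lgr5- cells. All 6 Mex3a+ arrays lay below all 6 Mex3a- arrays, by a narrow margin between 6.76 and 6.78. It was the 1 of 23 members with such a separation (4.35%, against 9.02% of all genes), and 0 were separated the other way (4.27%). The fall was 0.53 log2 units, or 1.44-fold (log2 difference -0.53, SE 0.10, adjusted p = 0.00265; with the replicate block, 3.65e-05). Within a mouse it was -0.39, -0.59 and -0.62. Hoxa7 stayed called without each of the 12 arrays in turn (highest adjusted p 0.00914). Without the pairing it missed the threshold when mouse MKL367 was left out (adjusted p = 0.0740), and with the pairing it passed without any 1 mouse.

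Hoxd9, the most 3' member of cluster D above the signal level, measured 7.67, 7.74 and 8.26 in Mex3a+ Lgr5+ cells and 7.48, 7.69 and 7.87 in Mex3a+ Lgr5- cells. It measured 8.15, 8.42 and 8.42 in Mex3a- Lgr5+ cells and 7.83, 8.19 and 8.18 in Mex3a- Lgr5- cells. The groups overlapped across mice: MKL367's Mex3a+ Lgr5+ array, at 8.26, stood above 4 of the 6 Mex3a- arrays. The difference was -0.41 (SE 0.12, 1.33-fold lower, adjusted p = 0.0248; with the replicate block, 4.76e-04). The test without pairing was lost on leaving out any 1 of 6 of the 12 arrays (highest adjusted p 0.0610), mouse MKL347 (0.0945) or mouse MKL358 (0.171), and with array weights (0.0537) or quantile normalization on top (0.115). With the pairing Hoxd9 was called in all of 12 removals of an array and 3 of 3 removals of a mouse.

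The other called members of cluster D, posterior genes known for their part in limb, hindgut and genitourinary development, passed with the mouse in the model but not without it. Hoxd10 measured 4.09, 5.08 and 5.08 in Mex3a+ Lgr5+ cells and 4.12, 4.82 and 4.75 in Mex3a+ Lgr5- cells. Its Mex3a- values were 5.19, 5.75 and 5.20 in Lgr5+ cells and 4.45, 5.28 and 5.16 in Lgr5- cells. Within each mouse both Mex3a+ arrays lay below both Mex3a- arrays, while the groups overlapped across mice. The difference was largest in mouse MKL347 (-0.71, against -0.56 in MKL358 and -0.26 in MKL367). Both Mex3a+ arrays of MKL347, at 4.09 and 4.12, lay below the signal level of 4.40. The difference was -0.51 (SE 0.22 and adjusted p = 0.100 without the block; SE 0.10 and adjusted p = 0.00134 with it).

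Hoxd11 measured 6.76, 8.08 and 7.61 in Mex3a+ Lgr5+ cells and 6.91, 7.81 and 7.68 in Mex3a+ Lgr5- cells. In Mex3a- cells it measured 7.70, 8.66 and 7.75 where Lgr5+ and 7.06, 8.54 and 7.94 where Lgr5-. Mouse MKL347 was lowest and mouse MKL358 highest in each of the 4 populations. Again both Mex3a+ arrays lay below both Mex3a- arrays in all 3 mice. The difference was -0.47 (SE 0.30, adjusted p = 0.278; with the block SE 0.11, adjusted p = 0.00407), and it missed the threshold with the block when mouse MKL358 was left out (adjusted p = 0.0544).

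Hoxd13, the last gene of the cluster at its 5' end, measured 7.27, 8.25 and 7.92 in Mex3a+ Lgr5+ cells and 7.60, 8.59 and 7.89 in Mex3a+ Lgr5- cells. It measured 8.28, 8.93 and 8.48 in Mex3a- Lgr5+ cells and 7.64, 8.48 and 8.70 in Mex3a- Lgr5- cells. In mouse MKL358 the Mex3a+ Lgr5- array exceeded the Mex3a- Lgr5- array, so both Mex3a+ arrays lay below both Mex3a- arrays only in the other two mice. The difference was -0.50 (SE 0.24, adjusted p = 0.142; with the block SE 0.11, adjusted p = 0.00234). A second, dimmer Hoxd13 probe set gave -0.32 (adjusted p with the block 0.0177, over all probe sets). Hoxd12 was the member of cluster D above the signal level that was not called, at -0.11 (SE 0.18, adjusted p = 0.704; with the block 0.491). In mice MKL347, MKL358 and MKL367 the Hoxd12 difference was 0.04, -0.40 and 0.03.

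In cluster A the paired test also called Hoxa3, a gene of pharyngeal and thymus development. It measured 7.97, 7.88 and 7.86 in Mex3a+ Lgr5+ cells, 7.85, 7.49 and 7.32 in Mex3a+ Lgr5- cells, 8.27, 8.03 and 7.91 in Mex3a- Lgr5+ cells and 8.35, 7.75 and 7.66 in Mex3a- Lgr5- cells. Mouse MKL347 alone had both Mex3a+ arrays below both Mex3a- arrays. The difference was -0.27 (SE 0.13, adjusted p = 0.150; with the block SE 0.07, adjusted p = 0.0103). All 4 Hoxa3 probe sets had a negative difference (-0.27, -0.10, -0.10 and -0.25). Without mouse MKL347 the paired adjusted p was 0.0754, and Hoxa3 was not called with the mean of all its probe sets or once the arrays were quantile normalized again.

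Hoxb6 and Hoxb5 are neighbours in cluster B. Hoxb6 measured 4.77, 6.10 and 5.08 in Mex3a+ Lgr5+ cells, 5.05, 5.83 and 4.66 in Mex3a+ Lgr5- cells, 5.35, 5.93 and 5.52 in Mex3a- Lgr5+ cells and 5.17, 6.26 and 5.60 in Mex3a- Lgr5- cells. All 4 arrays of mouse MKL358 lay above the other 8. The difference was -0.39 (SE 0.27, adjusted p = 0.317; with the block SE 0.11, adjusted p = 0.0160). The paired call was lost without MKL347's Mex3a+ Lgr5+ array (adjusted p = 0.0511) and without mouse MKL367 (0.186).
Hoxb5 measured 5.87, 6.20 and 5.45 in Mex3a+ Lgr5+ cells, 5.70, 6.45 and 5.97 in Mex3a+ Lgr5- cells, 6.03, 6.65 and 6.04 in Mex3a- Lgr5+ cells and 5.82, 6.43 and 6.34 in Mex3a- Lgr5- cells. The populations overlapped widely. The difference was -0.28 (SE 0.18, adjusted p = 0.288; with the block SE 0.10, adjusted p = 0.0492), and the paired call stood in 3 of 12 removals of an array and in 0 of 3 removals of a mouse.

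**Figure D1:**
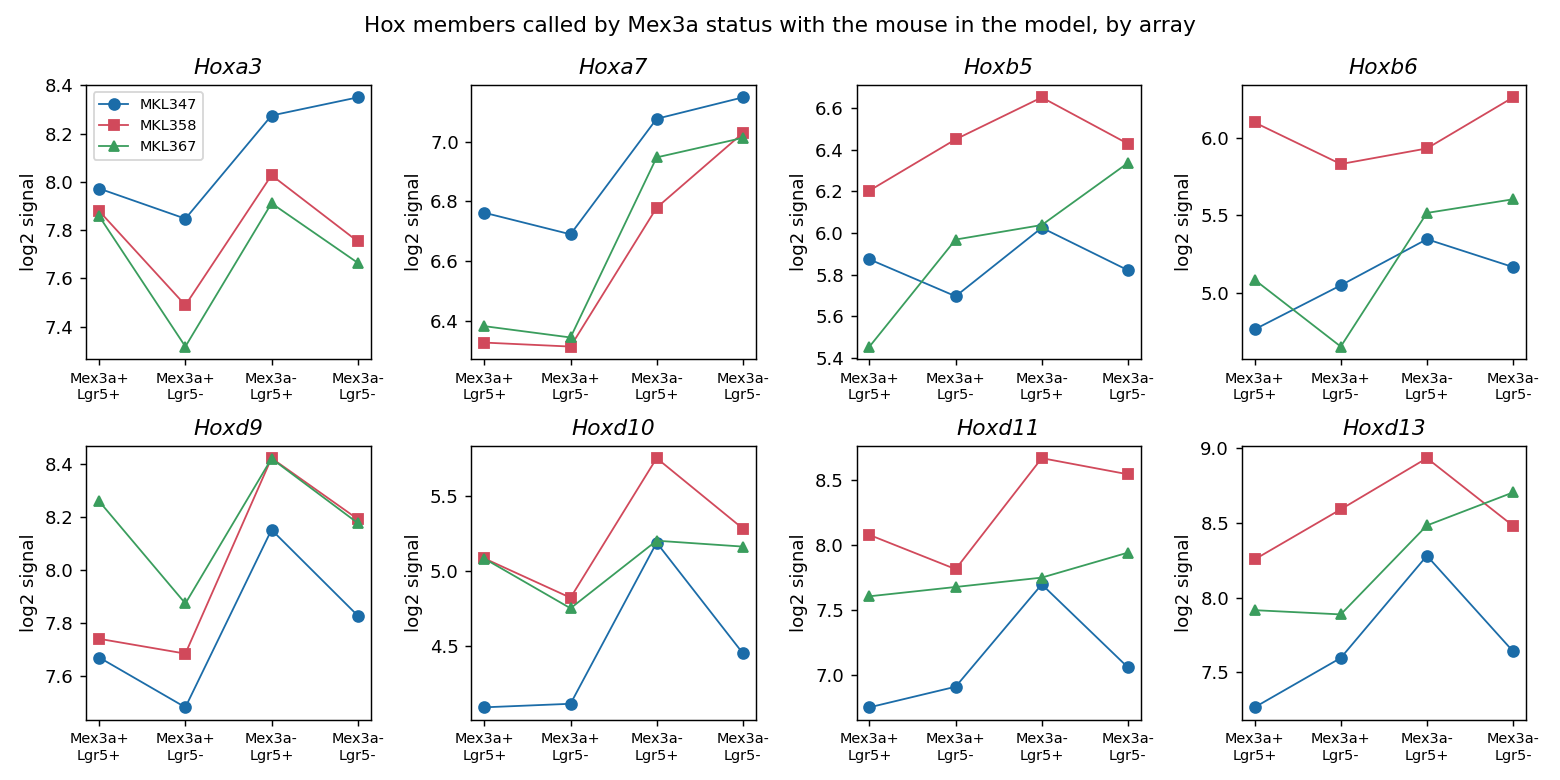
Log2 signal (vertical axis, its own range in each panel) of the 8 members called by Mex3a status with the mouse in the model, by sorted population (horizontal axis); each line joins the 4 arrays of 1 mouse. For Hoxa7 the 6 Mex3a+ arrays (6.31 to 6.76) lie below the 6 Mex3a- arrays (6.78 to 7.15), while for the other 7 genes the populations overlap across mice.

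Among the members with the brightest probe sets, Hoxb13 and Hoxa9 were not called by Mex3a status in either test. Hoxb13, the posterior end of cluster B, measured 7.87, 9.18 and 9.52 in Mex3a+ Lgr5+ cells, 8.78, 9.35 and 9.61 in Mex3a+ Lgr5- cells, 9.03, 9.55 and 9.23 in Mex3a- Lgr5+ cells and 8.86, 9.48 and 9.59 in Mex3a- Lgr5- cells. MKL347's Mex3a+ Lgr5+ array was the lowest, and the difference was -0.24 (SE 0.26, adjusted p = 0.543; with the block 0.176). The paired test called it lower without mouse MKL367, and without that mouse's Mex3a+ Lgr5+ or Mex3a- Lgr5+ array. Hoxa9, whose product is best known from blood progenitors, measured 9.18, 8.94 and 9.15 in Mex3a+ Lgr5+ cells, 9.04, 8.73 and 8.95 in Mex3a+ Lgr5- cells, 9.20, 8.99 and 9.17 in Mex3a- Lgr5+ cells and 9.23, 8.80 and 9.20 in Mex3a- Lgr5- cells. Its 12 values spanned 0.50 log2 units, and the difference was -0.10 (SE 0.09, adjusted p = 0.458; with the block 0.103). The paired test called it lower with median centring on top and without MKL358's Mex3a- Lgr5- array.

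The other 13 members tested had differences between -0.11 (Hoxb9) and 0.22 (Hoxa13) and passed neither test. Hoxa13, the paralog of Hoxd13, was higher in Mex3a+ cells in mice MKL347 and MKL367 (0.36 and 0.38) and lower in mouse MKL358 (-0.09); its adjusted p was 0.212 without the block and 0.0940 with it, and the paired test called it higher after a further quantile normalization, without mouse MKL358, and without that mouse's Mex3a+ Lgr5- or Mex3a- Lgr5- array. The dimmer probe sets of Hoxb4 (0.11 against -0.02) and Hoxc5 (-0.03 against 0.12) had the opposite sign to the brighter ones.

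By cluster, the median Mex3a difference was -0.02 over the 9 tested members of A, -0.11 over 7 of B, 0.06 over 2 of C and -0.47 over 5 of D. All 5 of the D members tested lay below 0 on average, as did 6 of 9 in A, 5 of 7 in B and 0 of 2 in C. Within a mouse, Hoxd12 lay below 0 in mouse MKL358 alone. With quantile normalization or median centring on top, all 5 D members still lay below 0 (median -0.38 and -0.50), while the median of A was 0.01 and -0.06 with 4 and 6 of 9 below 0, and 6 of 7 in B and 1 of 2 in C lay below 0. Over the 23 members the median was -0.10 and 16 lay below 0 (69.6%), against a median of -0.01 and 52.6% below 0 over all genes tested. These members passed a filter on signal and share arrays, so the counts are a description. The count of members with both Mex3a+ arrays below both Mex3a- arrays in every mouse was 3 of 23 (Hoxa7, Hoxd10 and Hoxd11; 13.0%), against 17.7% of all genes, and with both above it was 0, against 9.92%.

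**Figure D2:**
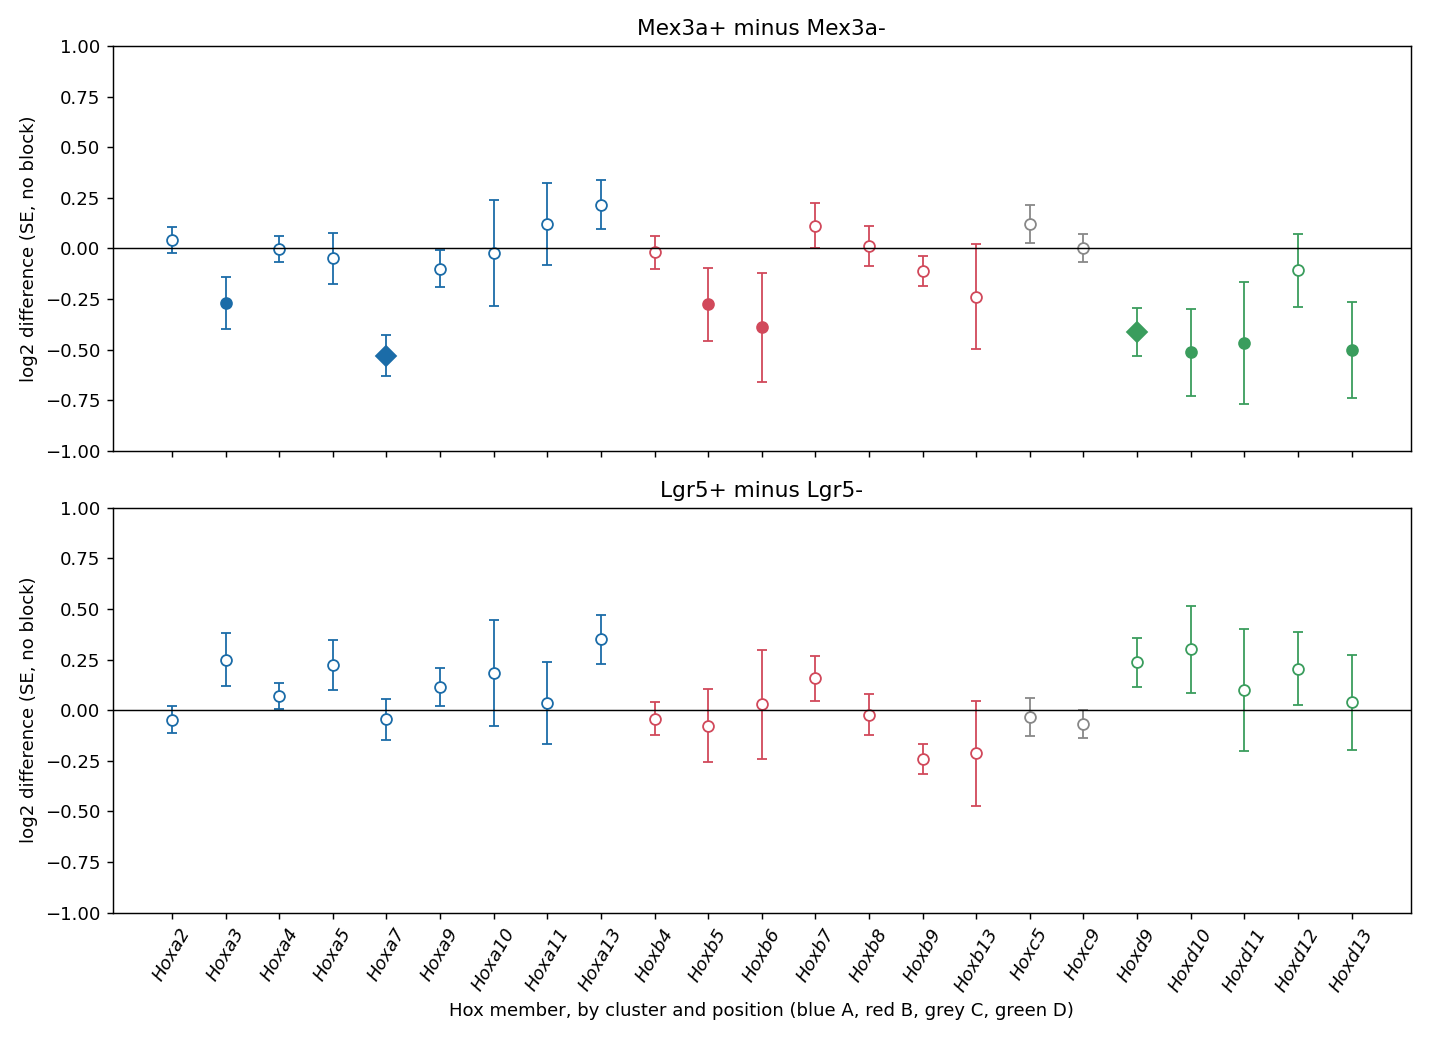
Log2 difference (vertical axis) of each of the 23 tested members, by cluster and position (horizontal axis), for Mex3a+ minus Mex3a- (top) and Lgr5+ minus Lgr5- (bottom); bars are limma standard errors without the mouse in the model. Diamonds mark the 2 members called without the mouse in the model, filled circles the further 6 called with it, and open circles those not called. The 5 members of cluster D all lie below 0 by Mex3a status (Hoxd12 through mouse MKL358 alone), and no member is called by Lgr5 status.

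The Mex3a difference was then taken within each Lgr5 state (3 arrays against 3). In Lgr5+ cells, 0 members were called lower (4.80% of all genes) and 0 higher (3.21%) without the mouse in the model, with 4 at an unadjusted p under 0.05 (17.4%, against 22.7% of all genes). With the replicate block 5 were called lower (21.7%, against 13.2% of all genes) and 0 higher (8.84%). These were Hoxd13 (-0.75, SE 0.15, adjusted p = 0.00333), Hoxd10 (-0.63, SE 0.14), Hoxd11 (-0.56, SE 0.15), Hoxa7 (-0.45, SE 0.09) and Hoxd9 (-0.44, SE 0.10), so 4 of the 5 tested members of cluster D were among them. The count fell to 1 without mouse MKL347 and to 2 without mouse MKL358.

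In Lgr5- cells, Hoxa7 was called lower without the block (-0.62, SE 0.14, 1.53-fold, adjusted p = 0.0132), as 1 of 23 members (4.35%) beside 11.7% of all genes, and 0 were higher (5.15%). Hoxa7 lost this call without mouse MKL358, mouse MKL367, MKL347's Mex3a- Lgr5- array or MKL367's Mex3a+ Lgr5- array. With the block 5 were lower (21.7%, against 21.1% of all genes) and 0 higher (10.8%): Hoxa7, Hoxb6 (-0.50, SE 0.16), Hoxd10 (-0.40, SE 0.14), Hoxd9 (-0.39, SE 0.10) and Hoxa3 (-0.37, SE 0.10). The paired count was 2 without mouse MKL347, mouse MKL367 or MKL367's Mex3a+ Lgr5- array, and 3 without MKL358's Mex3a+ Lgr5- array or MKL367's Mex3a- Lgr5- array. Hoxd13 had a difference of -0.25 here (SE 0.15 with the block, adjusted p = 0.230), against -0.75 in Lgr5+ cells.

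Whether the Mex3a difference itself differed between Lgr5+ and Lgr5- cells was tested as an interaction. It was called for 0 members and 0% of all genes, with the block and without it, so no member is shown to differ more in 1 Lgr5 state than in the other. At an unadjusted p under 0.05 there were 1 member without the block (4.35%, against 2.85% of all genes) and 2 with it (8.70%, against 8.56%). For Hoxd13 the interaction was -0.50 (SE 0.21 with the block, unadjusted p = 0.0355, adjusted p = 0.535), and for Hoxa7 it was 0.17 (SE 0.13 with the block, adjusted p = 0.768).

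By Lgr5 status no Hox member was called. Averaged over both Mex3a states, limma called 0 of 23 members (0.0397% of all genes), and 0 with the replicate block (1.80%). At an unadjusted p under 0.05 there were 2 members without the block (8.70%, against 6.22% of all genes) and 7 with it (30.4%, against 14.0%). Within Mex3a+ cells the count was 0 without the block (0% of all genes) and 0 with it (0.0715%), and within Mex3a- cells 0 (0.0318%) and 0 (1.62%). The unadjusted counts, without the block and with it, were 1 and 4 members within Mex3a+ cells (2.99% and 8.68% of all genes) and 2 and 6 within Mex3a- cells (6.23% and 14.4%). Few genes of any kind were called by Lgr5 status after adjustment.

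The largest difference by Lgr5 status was in Hoxa13, a gene of hindgut and limb development. Its log2 signal was 7.99, 7.42 and 7.52 in Mex3a+ Lgr5+ cells and 7.50, 7.35 and 7.19 in Mex3a- Lgr5+ cells. In Lgr5- cells it was 7.32, 6.89 and 7.42 where Mex3a+ and 7.10, 7.13 and 7.00 where Mex3a-. It was higher in Lgr5+ cells in 3 of 3 mice, by 0.53, 0.37 and 0.14, which gives 0.35 with a 95% interval of 0.26 to either side and an adjusted p of 0.568, or 0.0963 with the block. Hoxb9 had the largest negative value, at -0.24 (0.16 to either side, adjusted p = 0.483; with the block 0.117), and was lower in 3 of 3 mice. For Hoxa7 the Lgr5 difference was -0.04 (0.22 to either side). In cluster D, 0 of 5 tested members lay below 0 by Lgr5 status, with a median of 0.20, against a median of 0.01 over all genes.

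Differences among the 3 mice were tested after the values by array had been seen, with the population as a term. The spread used is that among the 4 arrays of a mouse, so these tests compare these particular animals and their pools and no condition of the study. Mouse, pool size, and the handling of a mouse's 4 samples cannot be told apart. Of the 23 members, 14 differed among mice (60.9%) beside 27.6% of all genes: 6 of 9 in cluster A, 3 of 7 in B, 0 of 2 in C and 5 of 5 in D. The mouse took a median of 74.0% of the sum of squares within populations for the Hox members and 51.1% for all genes. The count fell to 5 when mouse MKL347 was left out and to 6 when mouse MKL358 was.

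The clusters ranked the mice differently. All 9 tested members of cluster A had their highest mean in mouse MKL347. All 5 tested members of D and both of C had their lowest mean there, as did 5 of 7 in B. With median centring on top these counts did not change, and with quantile normalization on top Hoxa9 left the 9 of cluster A and all 7 of B were lowest there. In cluster D, 4 of 5 members were highest in mouse MKL358, which gave the smaller pools. Hoxa10, a posterior member of cluster A known from uterine development, had means of 8.31, 7.28 and 7.81 in mice MKL347, MKL358 and MKL367, and Hoxd11 had means of 7.11, 8.27 and 7.74. The 2 genes thus stood in opposite order over the mice.

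**Figure D3:**
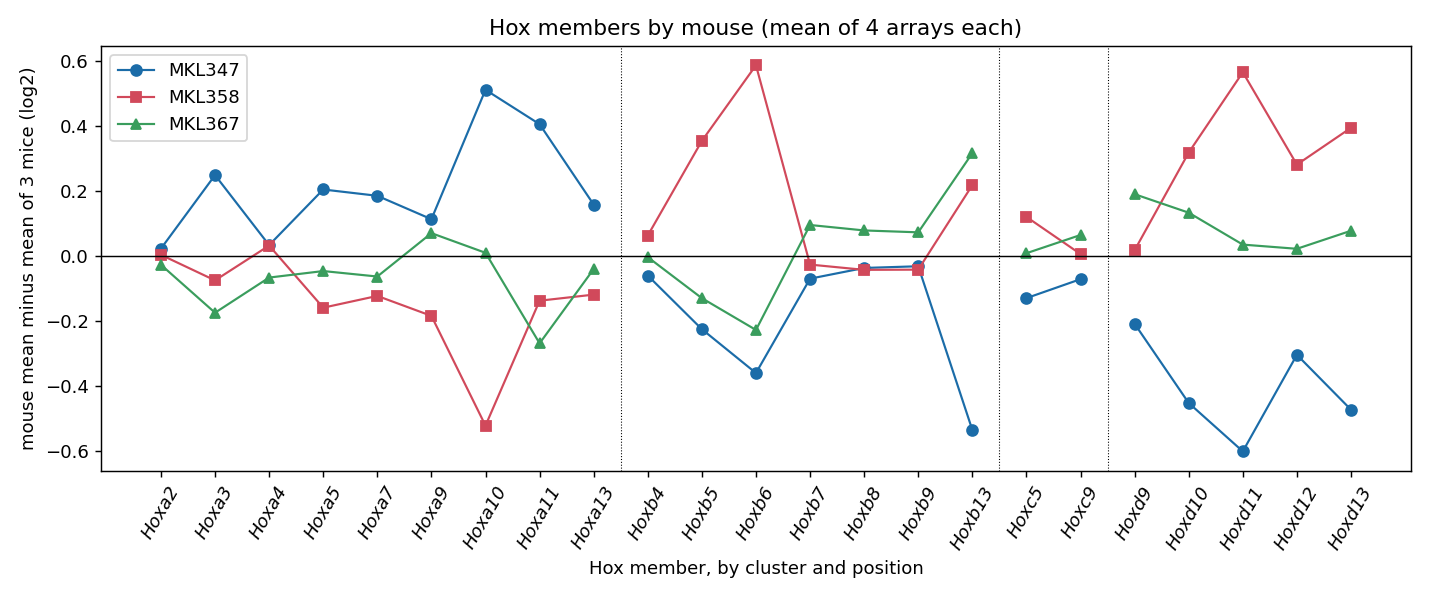
Mean of the 4 arrays of each mouse minus the mean of the 3 mice (vertical axis, log2) for the 23 tested members by cluster and position (horizontal axis); lines join members of a cluster. Mouse MKL347 is highest for all 9 members of cluster A (8 of 9, without Hoxa9, after a further quantile normalization) and lowest for all 5 of cluster D.

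Mice MKL347 and MKL367 both gave pools of 2000 cells, so pool size as labelled is equal in that pair. Between them, 3 members were higher in mouse MKL347 (13.0%, against 2.24% of all genes) and 5 were lower (21.7%, against 1.29%). Higher were Hoxa11 (0.67, SE 0.14), Hoxa10 (0.50, SE 0.11) and Hoxa3 (0.42, SE 0.09), and lower were Hoxb13 (-0.85, SE 0.16), Hoxd11 (-0.64, SE 0.13), Hoxd10 (-0.59, SE 0.12), Hoxd13 (-0.55, SE 0.13) and Hoxd9 (-0.40, SE 0.09). Their adjusted p lay between 0.0169 (Hoxb13) and 0.0386 (Hoxd13). This count rests on single arrays: it was 0 without MKL347's Mex3a+ Lgr5- array, 1 without its Mex3a- Lgr5- array, 1 without MKL367's Mex3a+ Lgr5+ or Mex3a+ Lgr5- array, 3 without MKL347's Mex3a+ Lgr5+ array, and 4 without MKL367's Mex3a- Lgr5- array.

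Against mouse MKL358, with 500 cells per pool, mouse MKL347 had 6 members higher (26.1%, against 15.9% of all genes) and 7 lower (30.4%, against 8.15%). The 6 were all of cluster A, led by Hoxa10 (1.03, SE 0.11), and the lower ones were led by Hoxd11 (-1.17, SE 0.13) and Hoxb6 (-0.95, SE 0.14). The count over both directions was 9 to 14 on leaving out any 1 array. Between mice MKL367 and MKL358, 2 members were higher in mouse MKL367 (8.70%, against 12.7%), Hoxa9 and Hoxa10, and 3 were lower (13.0%, against 10.3%), Hoxb5, Hoxb6 and Hoxd11, shares close to those of all genes.

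Once the population means were removed, members of cluster D moved together over the 12 arrays, with a median Pearson r of 0.73 over 10 pairs (0.48 to 0.95). The 36 pairs within cluster A had a median of 0.39 (-0.34 to 0.93), and the 21 within B one of 0.18. Between A and D the median was -0.67 over 45 pairs, from -0.95 (Hoxa10 with Hoxd11) to 0.10. Pairs of B with D had a median of 0.43, and pairs of A with B one of -0.26. The pair across clusters with the highest r was Hoxb13 with Hoxd10 (0.93). The 12 arrays come from 3 mice, so these values describe mostly the differences among mice given above.

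**Figure D4:**
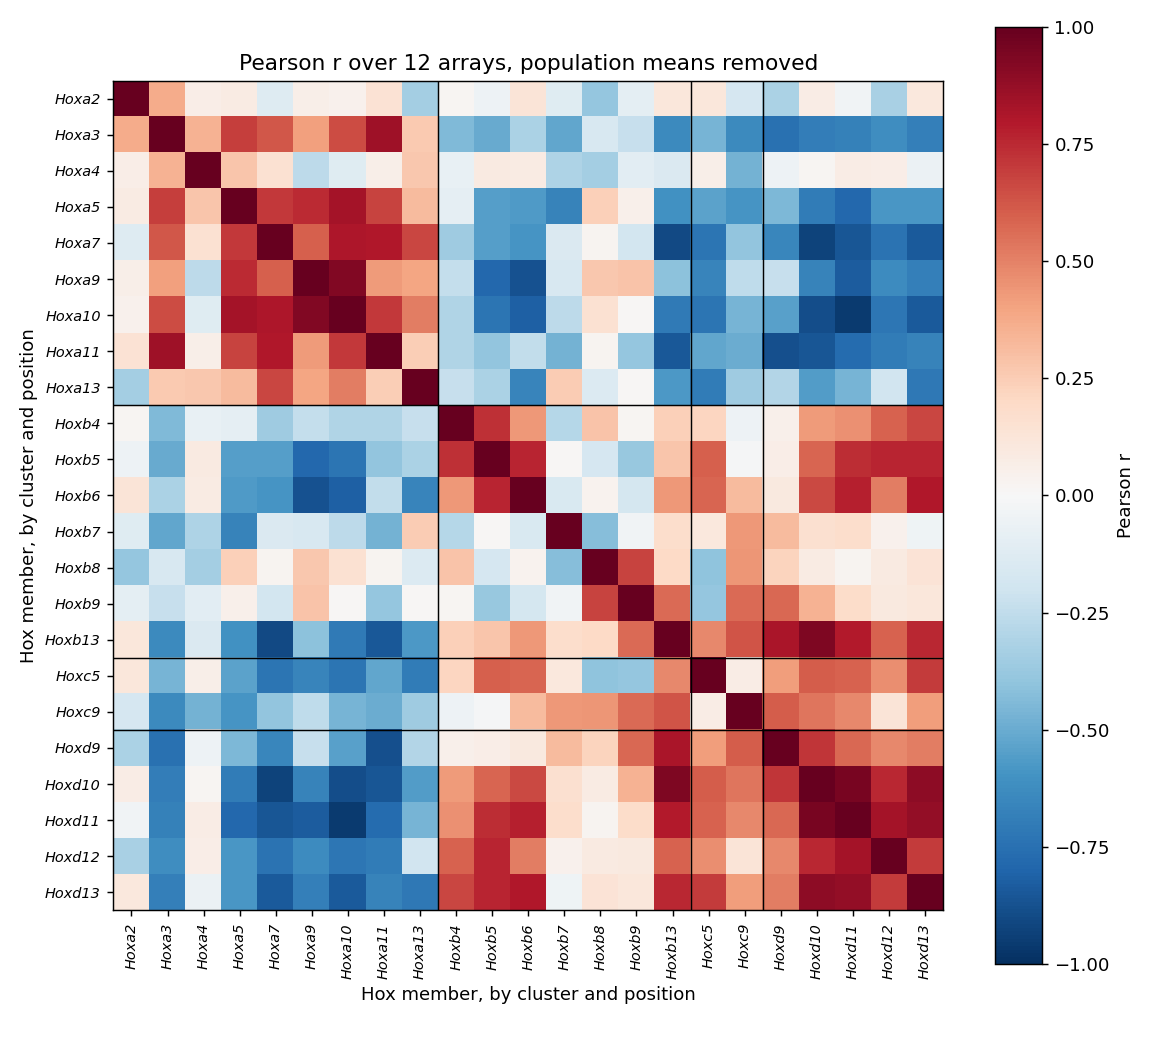
Pearson r (colour scale from -1 to 1) between the 23 tested members over 12 arrays after removal of population means, by cluster and position on both axes, with black lines between clusters. Cluster D forms a block of positive values (0.48 to 0.95) and stands mostly opposite to cluster A.

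Genes that act with or on Hox genes were counted from lists, without the mouse in the model unless stated. Among the TALE cofactors, 3 of 10 tested were higher in Mex3a+ cells and 1 was lower: Meis2 (1.51, SE 0.30), Tgif1 (0.49, SE 0.07), Tgif2 (0.44, SE 0.08) and Pknox2 (-0.19, SE 0.06). With the replicate block the counts for this list and for the Cdx list were the same. The 6 Mex3a+ arrays of Meis2 lay between 5.41 and 7.01, and the Mex3a- arrays between 4.52 and 5.46. The caudal genes Cdx1 and Cdx2, which encode intestinal transcription factors, were both lower in Mex3a+ cells, by 1.31 (log2 difference -1.31, SE 0.19, adjusted p = 5.44e-04) and by 1.11 (-1.11, SE 0.17), as 2 of 3 tested members of the Cdx and ParaHox list. In each mouse the 2 Mex3a+ arrays lay below the 2 Mex3a- arrays for both genes. In the retinoic acid list 3 of 13 were lower, the synthesis enzymes Aldh1a3 (-2.32, SE 0.40) and Aldh1a1 (-1.03, SE 0.18) and the receptor Rxra (-0.38, SE 0.10), and 0 were higher. With the replicate block 3 of 13 were lower and 3 higher, the last being Stra6 (0.61, SE 0.13), Rdh10 (0.22, SE 0.06) and Rarg (0.26, SE 0.09).

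Of the chromatin regulators, 5 of 30 tested Polycomb genes rose in Mex3a+ cells and 1 fell, with Cbx6 (0.85, SE 0.12), Pcgf1 (0.97, SE 0.20) and Phc1 (0.54, SE 0.13) up and Cbx2, a Polycomb chromodomain protein, at 0.48 (SE 0.11). With the replicate block 11 of the 30 were higher and 5 lower. Of 20 Trithorax and MLL genes, 1 was higher (Mllt3, 0.44, SE 0.11) and 3 lower (Dpy30, -0.29, SE 0.05; Men1, -0.34, SE 0.08; Wdr5, -0.23, SE 0.08), and with the block 5 were higher and 4 lower. Among 8 genes that flank the clusters, Evx1, the homeobox gene beside Hoxa13, was higher (0.54, SE 0.08, adjusted p = 7.69e-04) and 7 passed in neither direction. With the block Skap2 (0.18, SE 0.05, adjusted p = 0.00860) was also higher and Mtx2 (-0.24, SE 0.07, adjusted p = 0.0146) lower. The 1 noncoding RNA of the clusters that was tested, Hoxaas2, gave -0.18 (SE 0.08, adjusted p = 0.148). Of 9 genes of colon regional identity, Prox1 (1.42, SE 0.18) and Tbx3 (1.29, SE 0.18) were higher, and with the block Foxa1 and Sox9 were higher too. By Lgr5 status none of these lists had a called member without the block, and with it the 1 called was Prox1 (0.48, SE 0.08, adjusted p = 0.0130). The list counts stand beside the same background of 17.3% lower and 9.91% higher without the block, and 25.3% and 15.9% with it.

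Some markers of epithelium and of other cell types were called by Mex3a status as well, and their part in the Hox results was not tested. Their counts stand beside 17.3% of all genes called lower and 9.91% higher without the block, and 25.3% and 15.9% with it. Counts near these shares do not show a change in a cell type. Of the epithelial markers 7 of 10 were lower in Mex3a+ cells and 0 higher. The myeloid markers had 3 of 12 lower (Cd14, Tyrobp and Fcer1g), with mean levels over the 18 listed genes on the array of 4.94 to 5.35 in Mex3a+ and 5.02 to 5.92 in Mex3a- arrays, and the highest in MKL358's Mex3a- Lgr5- array. The fibroblast and smooth muscle markers had 2 of 12 higher (Vim and Fbln1), while the other 10 passed in neither direction. The median difference over the 12 was -0.07, so the list as a whole did not rise in Mex3a+ cells. Levels over 19 listed genes were 5.27 to 5.39 in Mex3a+ arrays against 5.09 to 6.07 in Mex3a- arrays. The value of 6.07 belonged to MKL367's Mex3a- Lgr5+ array. Without that array Hoxd9 lost its call in the test without the block and Hoxa7 was the 1 member called. With the block Hoxb5 was lost, Hoxb13 was gained and the other 7 called members remained. Hoxd9 and Hoxb5 also lost these calls on removal of other single arrays, so the losses are not particular to this array. Endothelial markers had 1 of 11 higher, enteric neuron and glia markers 1 of 6 higher and 1 lower, and lymphocyte markers 0 of 8. With the replicate block the counts by Mex3a status, higher and lower, were 1 and 7 for epithelium, 0 and 5 for myeloid cells, 3 and 0 for fibroblasts and smooth muscle, 2 and 0 for endothelium, 2 and 1 for enteric neurons and glia, and 0 and 0 for lymphocytes. By Lgr5 status with the block, Vim (0.65, SE 0.10) and Fbln1 (0.40, SE 0.05) of the fibroblast list were higher and no other marker of these lists was called. Over the mice, the fibroblast list averaged 5.26, 5.29 and 5.44 and the enteric list 4.67, 4.73 and 4.69 in mice MKL347, MKL358 and MKL367, and the myeloid list 5.15, 5.52 and 5.17.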

How the data were processed

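Deposited values were log2 signals of an Affymetrix mouse array, made by the authors with RMA per the submitters' processing notes; no version or option is given in the sources used here. Values were used as deposited. Array medians lay between 4.86 and 4.92, and the number of arrays limits the precision. Of 45141 probe sets, 28898 have 1 symbol in the platform table, 551 several and 15692 none; only the first were used. One probe set per gene (highest mean) and the filter on low values left 12595 genes.

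Linear models were fitted per gene with limma 3.58.1 under R 4.3.3 (population means, intensity trend, 2-sided tests). On simulated data the Mex3a test recovered 58.4% of changes of 0.5 log2 units without the block and 84.4% with it. False calls numbered 0 and 8. Far fewer genes were changed in the simulation than were called in the data, so these rates need not hold for the data. Every standard error and adjusted p is limma's. The mouse number in the titles pairs arrays of the same animal: with population means removed, arrays of a mouse correlated at 0.349 to 0.694 (18 pairs) and of different mice at -0.691 to 0.152 (48 pairs). Removing the means itself pushes arrays of the same population in different mice towards negative values, so the second range is partly built in. The design without the block is the main one, and the replicate block is printed where it changes a call. Members called by either test and the 5 with the highest mean are given by array; lists are given by count and up to 4 names by p. List genes named as called with the block alone were chosen after their values were seen. Members, lists and tests were chosen with earlier results of these data known. The comparison of mice, and the block combined with other settings, were added after seeing the data. Other alternatives were the filter, 2 further scalings, probe set choice, no trend, array weights, and leaving out mice and arrays.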

Additional observations from a re-analysis of the deposited data

How the results depend on the processing

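Without the pairing, the count of 2 Hox members called by Mex3a status was 1 after a further quantile normalization or with array weights. With the replicate block it was 8, and with the replicate block and quantile normalization 7 (6 lower), median centring 9, and the mean of all probe sets 7. Over removals of a mouse or an array, with or without the block, it ranged from 1 to 10. In Lgr5+ cells the count of 0 became 1 with array weights and 5 with the block, alone and with each of these scalings or the mean of probe sets (removals: 0 to 7). In Lgr5- cells the count of 1 became 5 with the block, 3 with quantile normalization, 6 with median centring and 5 with the mean of probe sets (removals: 0 to 6). By Lgr5 status the counts were 0 to 1 on average and within Mex3a- cells, the 1 arising with the block without the Mex3a- Lgr5+ array of mouse MKL367 (both) or its Mex3a- Lgr5- array (within Mex3a- cells), and 0 to 0 within Mex3a+ cells; the interaction gave 0 to 0. Removals moved the 14 members that differed among mice between 5 and 14, the 8 between mice MKL347 and MKL367 between 0 and 8, the 13 between MKL347 and MKL358 between 9 and 14, and the 5 between MKL367 and MKL358 between 4 and 6. None of the 8 named Mex3a differences changed sign in any alternative run. These 8 were chosen by the paired test on the same arrays and were lower in every mouse. Leaving out a mouse could therefore not reverse their sign, and the unchanged signs are no separate support. The scaling moved the share of lower among all calls from 63.5% to 53.6% (quantile) and 70.8% (median centring). The cause of these shifts was not tested.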
